A study of Mus musculus with 8 samples.

Results

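The endoplasmic reticulum (ER) folding machinery and the unfolded protein response were followed in 36 named genes, all of which were found in the 24821 genes of the deposited table by matching its gene identifiers to GENCODE M21 symbols. The 36 genes were chosen by name for their known roles, with earlier results of these data known. They fall into 11 chaperones and co-chaperones, 6 enzymes of disulfide formation and 8 genes of ER-associated degradation (ERAD). The others are the 3 sensors with Xbp1 and 7 genes of the PERK-ATF4 arm. All 36 passed the filter on low values. The study measured messenger RNA of epididymal white adipose tissue, the fat beside the male reproductive tract, in 4 libraries from Ccdc92 knockout (KO) mice and 4 from wild type (WT) mice. The KO and WT groups were male littermates of one age on a C57BL/6 background. For 14 weeks both ate a diet in which fat gave 60%, protein 20% and carbohydrate 20% of the energy, so no lean group stands beside them. Neither the age of the mice, the part of Ccdc92 that was removed, nor whether each library came from its own animal is given in the labels. The p-values therefore measure the spread between these libraries, which may be technical.

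Proteins that are secreted or enter a membrane fold inside the ER. There, chaperones hold them, protein disulfide isomerases join their cysteines, and ERAD passes those that fail to the proteasome. When unfolded protein builds up, the sensors IRE1 (gene Ern1), ATF6 and PERK (gene Eif2ak3) start the unfolded protein response. IRE1 splices the messenger of the transcription factor XBP1, ATF6 is cut free to enter the nucleus, and together these act on chaperone and ERAD genes. PERK slows protein synthesis and lets ATF4 be translated, and ATF4 acts on genes such as Ddit3, Trib3 and Chac1. Secretory cells, among them plasma cells and tract epithelium, carry much of this machinery, and adipocytes and macrophages of obese fat carry it as well. The deposited table counts reads per gene, so spliced and unspliced Xbp1 and any change of the proteins are not visible here.

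Many chaperone genes share a promoter element, the ER stress response element (ERSE), made of CCAAT and CCACG with 9 bases between them. It was searched on both strands of the 250 bases before the RefSeq start (GRCm38.p6), where 32 of the 36 genes had an entry. Hyou1, Manf, Derl1 and Atf6 were not matched. A match stood in 10 of the 32 genes, against 35 of 27025 genes in the whole RefSeq table (0.13%). The 35 include these 10, and the element was searched because it is known from chaperone genes, so the contrast is a description and no test. The 11 matches are shown because they mark the genes of this group that share a letter-for-letter element, written in the direction of the element with its fixed ends in capitals.
Hspa5, chromosome 2, bases 65 to 47 before the start, gene strand: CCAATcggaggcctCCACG
Hsp90b1, chromosome 10, bases 212 to 194 before the start, gene strand: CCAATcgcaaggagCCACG
Hsp90b1, chromosome 10, bases 107 to 89 before the start, other strand: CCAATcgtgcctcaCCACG
Calr, chromosome 8, bases 162 to 144 before the start, other strand: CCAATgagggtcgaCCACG
Canx, chromosome 11, bases 145 to 127 before the start, gene strand: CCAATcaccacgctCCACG
Creld2, chromosome 15, bases 126 to 108 before the start, other strand: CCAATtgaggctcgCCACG
Dnajc3, chromosome 14, bases 105 to 87 before the start, gene strand: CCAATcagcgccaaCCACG
Pdia6, chromosome 12, bases 98 to 80 before the start, gene strand: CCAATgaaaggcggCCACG
Ero1lb, chromosome 13, bases 201 to 183 before the start, other strand: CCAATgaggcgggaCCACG
Derl3, chromosome 10, bases 156 to 138 before the start, other strand: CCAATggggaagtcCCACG
Syvn1, chromosome 19, bases 44 to 26 before the start, gene strand: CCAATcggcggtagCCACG

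Of these 10 genes, 8 were lower in KO fat (21.5% of all genes were) and 2, Dnajc3 and Syvn1, did not pass the test described below. Of the 10, 8 were also chaperones or disulfide enzymes, so the element was not separated from that role. The lower genes Dnajb11, Sdf2l1 and Pdia3 of those roles held no match. Among the lower members with a promoter entry, 8 of 15 held the element, against 2 of 14 members that did not pass and 0 of 3 that were higher. These are counts of letters in a window and say nothing about the factors that bind there. Other motifs were also searched on both strands. ERSE-II, made of ATTGG and CCACG with 1 base between them, matched 1 member, Herpud1 (0.037% of RefSeq genes). The core of the XBP1 element, TGACGTGG, matched 0 members (0.603% of RefSeq genes). The composite ATF4 element TGATGNAAN matched Chac1 and Herpud1 (3.89% of RefSeq genes). No match in a member overlapped another. Longer stretches of 3 promoters are given below, 5′ to 3′ on the gene's strand and ending before the GENCODE start. Hsp90b1 held 2 ERSE matches, Calr was the most abundant member, and Chac1 held the composite ATF4 element and was higher in KO. Capitals mark the motif matches, which read as the reverse complement where the element lies on the other strand.
Hsp90b1, chr10:86705510-86705694, minus strand: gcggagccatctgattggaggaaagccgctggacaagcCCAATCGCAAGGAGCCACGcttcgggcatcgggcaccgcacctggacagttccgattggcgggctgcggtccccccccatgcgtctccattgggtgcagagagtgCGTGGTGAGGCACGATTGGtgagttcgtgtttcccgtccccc
Calr, chr8:84846935-84847181, minus strand: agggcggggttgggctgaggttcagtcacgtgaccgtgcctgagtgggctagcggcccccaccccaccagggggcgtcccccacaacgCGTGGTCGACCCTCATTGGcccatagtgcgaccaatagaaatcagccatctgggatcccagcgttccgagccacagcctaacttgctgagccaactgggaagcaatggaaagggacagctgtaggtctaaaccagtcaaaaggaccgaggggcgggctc
Chac1, chr2:119350992-119351228, plus strand: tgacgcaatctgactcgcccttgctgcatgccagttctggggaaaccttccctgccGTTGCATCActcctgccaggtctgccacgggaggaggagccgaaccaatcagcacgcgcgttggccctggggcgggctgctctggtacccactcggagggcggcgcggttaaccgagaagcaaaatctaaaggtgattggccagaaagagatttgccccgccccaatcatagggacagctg

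The libraries held 23681088 to 33817478 reads assigned to genes, all recovered from the deposited values. Reads of the targeted gene Ccdc92 numbered 8, 6, 9 and 4 in KO libraries 1 to 4 and 59, 71, 114 and 106 in WT libraries 1 to 4 (log2 fold change -3.34, SE 0.33, limma adjusted p = 0.000383). The values given below are normalized counts, in which the reads of each library are divided by its size factor. KO was compared with WT by limma, a linear model fitted to all genes at once, on log2(normalized count + 1), and a gene passed at a p under 0.05 after Benjamini-Hochberg adjustment over all genes tested. Of 17798 genes tested, 3592 were higher in KO (20.2%) and 3831 lower (21.5%), so 41.7% passed in either direction and a count of members has to be read against that share. Quantile normalization moved the median log2 fold change by 0.10 and gave 4593 higher and 3257 lower genes, while it turned the direction of none of the 36 members. Added to every value, a shift of that size would turn the sign of Dnajc3 and Derl2 and of no member that passed. The tissue held markers of fat in both groups. Adipoq, which encodes adiponectin, was at 68453 to 92421 in KO, against 12578 to 27239 in WT, in normalized counts. Cell type markers moved with the groups. The 8 adipocyte markers passed as higher in KO, with summed normalized counts of 615752 to 771349 in KO and 158083 to 327793 in WT. Macrophage markers passed as lower in 7 of 8 genes, with sums of 16252 to 28036 in KO and 101977 to 263528 in WT, fibroblast markers in 4 of 8 (84253 to 162541 in KO, 170925 to 264388 in WT) and mast cell markers in 7 of 7 (953.2 to 1292 in KO, 3961 to 11381 in WT). Plasma cell markers passed as lower in 5 of 7 genes (1874 to 3803 in KO, 6764 to 13359 in WT), and endothelial markers as higher in 4 of 6 (29099 to 31644 in KO, 12055 to 24420 in WT). Markers of the epididymis, a duct of secretory epithelium, summed to 9.7 to 1006 in KO and 39012 to 149506 in WT, with 5 of 8 genes at 0 in at least 1 KO library and 2 of 8 in at least 1 WT library; 6 were tested and 4 passed as lower. No marker of the other lists was at 0 in any library. KO library 4 held 9.7 of these epididymal counts where the other KO libraries held 880.2 to 1006, and WT library 4 was the lowest WT library. Log2 fold changes of the first genes listed were 1.62 for Plin1, -2.42 and -2.73 for the macrophage genes Adgre1 and Cd68, -0.49 and -1.48 for the fibroblast genes Pdgfra and Col1a1, and -3.50 and -3.35 for the mast cell genes Cpa3 and Mcpt4. They were -2.25 and -2.35 for the plasma cell genes Jchain and Mzb1, -12.91 and -6.55 for the epididymal genes Crisp1 and Defb42, and 0.46 and 0.65 for the endothelial genes Pecam1 and Cdh5, which did not pass. The part of these cell types in the results below was not tested, and in bulk tissue fewer cells of a type and less RNA per cell cannot be told apart.

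ER chaperones were lower in KO fat. Of the 11 chaperones and co-chaperones, 9 fell and 0 rose, with a median log2 fold change of -0.61, against a median of -0.01 over the genes tested. With the 6 disulfide enzymes, of which 3 fell and 0 rose, 12 of 17 were lower (21.5% of all genes were). The genes were chosen with earlier results of these data known, so the count is a description. The count of 0 rises was also 0 at an unadjusted p under 0.05, in edgeR and in DESeq2. The groups did not overlap in 12 of the 17, each time with KO below WT, where 21.1% of all genes were apart in that direction. Over all 36 members, KO lay wholly above WT in 4 (21.0% of all genes) and wholly below it in 18.

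**Figure D1:**
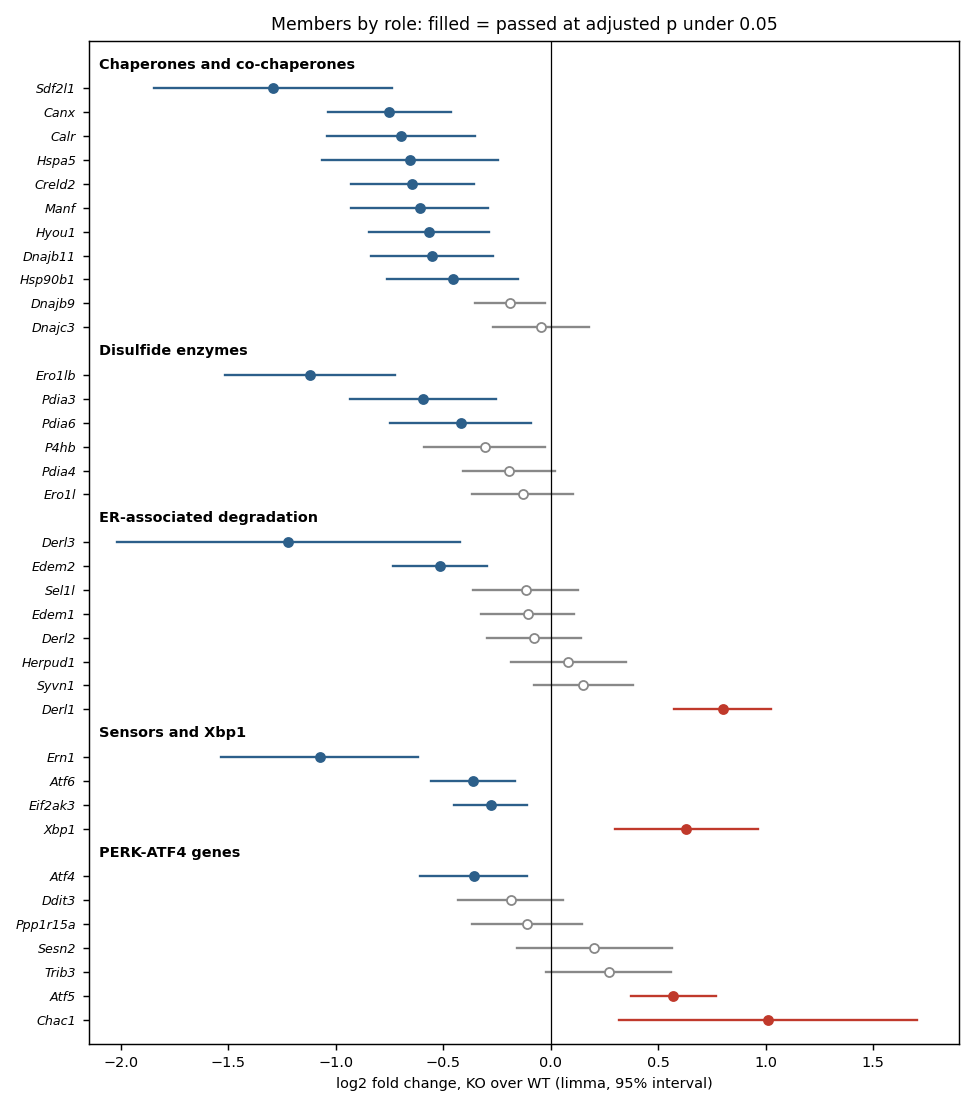
Log2 fold change, KO over WT, of the 36 members by role, with limma's 95% intervals; filled points passed at an adjusted p under 0.05 and open points did not. Chaperones and disulfide enzymes lie to the left of 0, from -1.29 to -0.05, whereas ERAD, sensor and PERK-ATF4 genes lie on both sides.

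Hspa5 (ENSMUSG00000026864.13, chr2:34771970-34777547, plus strand) encodes BiP, the ER member of the HSP70 family and the chaperone that holds the sensors in check. Its normalized counts were 13836, 14206, 11006 and 9412 in KO libraries 1 to 4, against 21031, 20300, 20726 and 14242 in WT libraries 1 to 4 (log2 fold change -0.66, SE 0.18, limma adjusted p = 0.0186). WT library 4 lay far below the other WT libraries and only just above the highest KO library, and the groups did not overlap. Without WT library 3, Hspa5 missed the threshold (limma adjusted p = 0.0545). Hsp90b1, which encodes GRP94, the ER member of the HSP90 family, had 12226, 11119, 10819 and 10119 in KO libraries 1 to 4, against 18566, 13852, 16217 and 12663 in WT libraries 1 to 4 (log2 fold change -0.46, SE 0.13, limma adjusted p = 0.025). WT library 4 was again the lowest of its group, and the groups lay close without overlap. Its call was lost without KO library 3 (limma adjusted p = 0.0568), KO library 4 (0.0619) or WT library 3 (0.0717).

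Calreticulin and calnexin hold glycoproteins by their trimmed sugars while they fold. Calreticulin, Calr, had 15519, 16049, 13066 and 12274 in KO libraries 1 to 4, against 28147, 21642, 24213 and 18724 in WT libraries 1 to 4 (log2 fold change -0.70, SE 0.15, limma adjusted p = 0.00716). The membrane-bound calnexin, Canx, had 7579.6, 7647, 7412 and 6954 in KO libraries 1 to 4, against 13891, 12770.1, 13839 and 9760.2 in WT libraries 1 to 4 (log2 fold change -0.75, SE 0.12, limma adjusted p = 0.00225). The 4 KO libraries of Canx lay close together, and KO kept 58.9% of its WT mean. Neither call was lost under any alternative tried, including the removal of each library in turn.

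Sdf2l1, a partner of the ER HSP40 proteins, had the lowest log2 fold change of the 36. It had 639, 607, 452 and 364 in KO libraries 1 to 4, against 1817, 1011, 1280.1 and 981 in WT libraries 1 to 4 (log2 fold change -1.29, SE 0.24, limma adjusted p = 0.00388), so that KO kept 40.5% of the WT mean. All KO libraries were below all WT libraries, and WT library 1 stood highest. Hyou1, a large HSP70 relative that exchanges nucleotide on BiP, averaged 2746 ± 167 in KO and 4106 ± 714 in WT (SD, n = 4 each), and fell (log2 fold change -0.57, SE 0.12, limma adjusted p = 0.0071). Dnajb11, an HSP40 co-chaperone of BiP, averaged 1551 ± 198 in KO and 2276 ± 307 in WT (SD, n = 4 each), and fell (log2 fold change -0.55, SE 0.12, limma adjusted p = 0.00837). Creld2 and Manf, small ER proteins that are induced and partly secreted under ER stress, fell by 0.65 and 0.61 on the log2 scale (limma adjusted p = 0.00437 and 0.00902). In Manf, WT library 4 at 1474 stood apart from 2070 to 2098 in the other WT libraries and near the 1044 to 1394 of KO. Manf shares 9.25% of its exon bases with neighbouring genes, and Hsp90b1 15.7%, so reads there could belong to either gene. Beside Hsp90b1, which averaged 11071 in KO and 15324 in WT, its neighbour 1810014B01Rik averaged only 88.0 in KO and 59.5 in WT. The neighbour Gm15344 averaged 5.4 in KO and 9.7 in WT.

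The other co-chaperones were Dnajb9 and Dnajc3. Dnajb9, which returns BiP to IRE1, ranged from 994 to 1134 in KO, against 1176 to 1309.8 in WT, with a log2 fold change of -0.19 (95% interval -0.35 to -0.03, limma adjusted p = 0.06). Its groups did not overlap although it missed the threshold, and it passed in DESeq2 (adjusted p = 0.0352) and with library weights (limma adjusted p = 0.00948). Dnajc3, also known as an inhibitor of PERK, ranged from 3026 to 3444 in KO, against 2829.6 to 3651 in WT, with a log2 fold change of -0.05 (95% interval -0.27 to 0.18, limma adjusted p = 0.727). Its groups overlapped, and its interval ended short of the estimates for Canx and Calr.

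**Figure D2:**
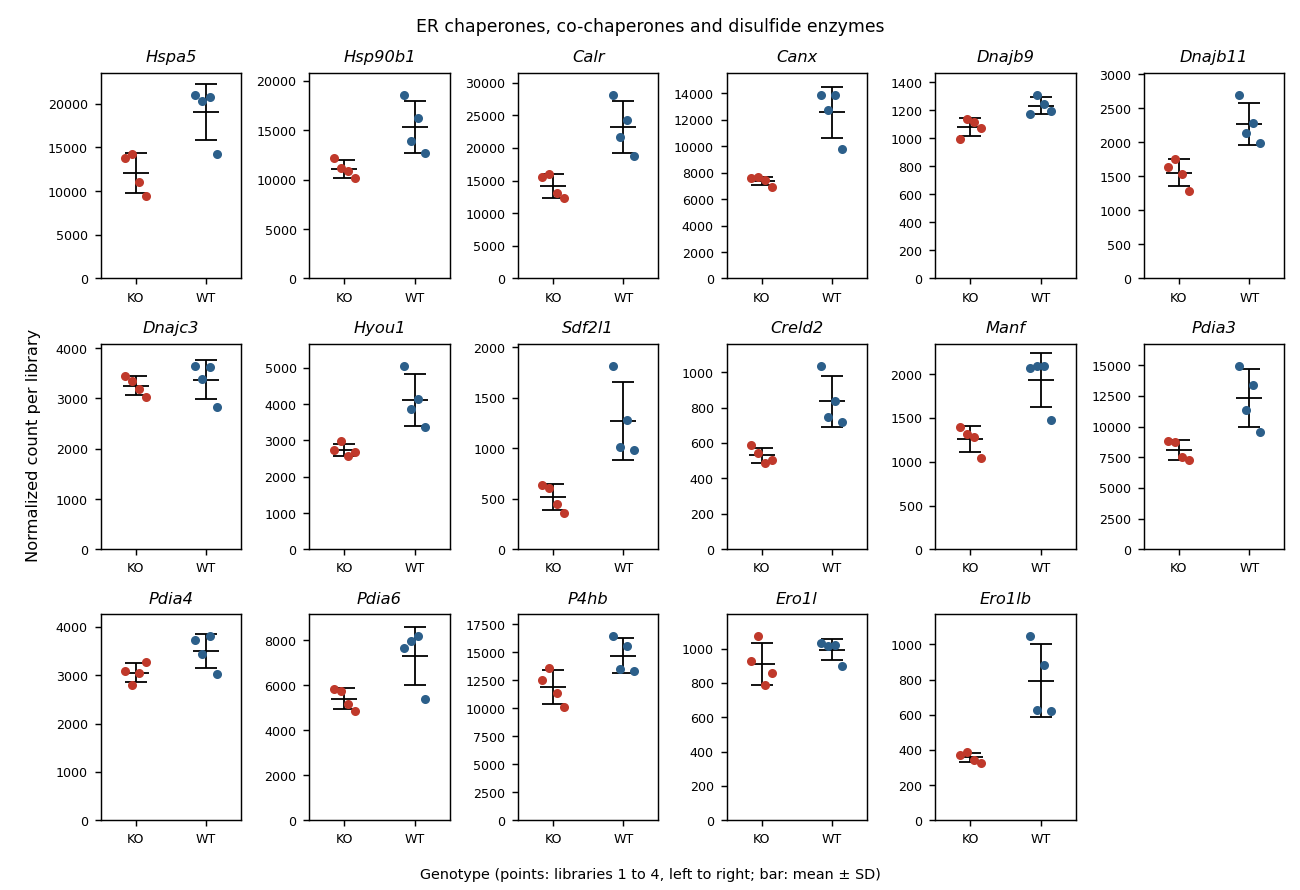
Normalized counts of the 17 chaperone, co-chaperone and disulfide enzyme genes in each library, with KO left and WT right in each panel, points for libraries and bars for the mean and SD; each axis starts at 0. The 12 genes whose groups do not overlap have KO below WT, and WT library 4 is the lowest WT point in 16 of the 17 panels.

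Of the disulfide enzymes, Pdia3, Pdia6 and Ero1lb fell and P4hb, Pdia4 and Ero1l did not pass. Pdia3, the isomerase that works with calnexin and calreticulin, had 8831, 8714, 7523 and 7270.4 in KO libraries 1 to 4, against 14975, 11393, 13412 and 9569 in WT libraries 1 to 4 (log2 fold change -0.59, SE 0.15, limma adjusted p = 0.0131). Its KO libraries were below its WT libraries, by a narrow gap at WT library 4. Ero1lb, the oxidase that recharges the isomerases and is best known from secretory cells such as pancreatic beta cells, had 374, 385, 342 and 326 in KO libraries 1 to 4, against 1046, 629, 881 and 623 in WT libraries 1 to 4 (log2 fold change -1.12, SE 0.17, limma adjusted p = 0.0017). KO kept 44.9% of its WT mean, and the KO libraries were tight where the WT libraries spread. Its paralogue Ero1l, the widely expressed oxidase, was at 790 to 1071 in KO, against 901 to 1031 in WT, a log2 fold change of -0.13 (95% interval -0.37 to 0.10, limma adjusted p = 0.334). The 95% interval of Ero1lb was -1.51 to -0.73, and the difference between the 2 paralogues was not itself tested. In current nomenclature Ero1l is Ero1a and Ero1lb is Ero1b.

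Pdia6, which also acts on IRE1, had 5806, 5737, 5158 and 4847 in KO libraries 1 to 4, against 7667, 7951, 8159.7 and 5363 in WT libraries 1 to 4. KO library 1 and KO library 2 were above WT library 4, so the groups overlapped, and its log2 fold change of -0.42 (95% interval -0.75 to -0.09, limma adjusted p = 0.0451) passed close to the threshold. It was lost when any KO library or any of WT libraries 1 to 3 was left out (limma adjusted p = 0.0609 to 0.119). P4hb, the most abundant disulfide isomerase here, was at 10131 to 13581 in KO, against 13311 to 16424 in WT, and had a log2 fold change of -0.31 (95% interval -0.59 to -0.03, limma adjusted p = 0.075). Pdia4 was at 2801 to 3283 in KO, against 3029 to 3804 in WT, and had one of -0.19 (95% interval -0.41 to 0.02, limma adjusted p = 0.127). P4hb passed in DESeq2 (adjusted p = 0.0339). In limma it passed under quantile normalization (adjusted p = 0.0449), with library weights (0.0246) and without KO library 2 (0.0483). Pdia4 passed without WT library 4 (limma adjusted p = 0.045) and with library weights (0.015).

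Summed over the 17 genes, normalized counts were 92161, 92986, 81128 and 75445 in KO libraries 1 to 4, against 144029, 121021, 133370 and 100728 in WT libraries 1 to 4. As a share of a library's reads they made up 0.284% ± 0.050 in KO and 0.463% ± 0.065 in WT (SD, n = 4 each). This share is not scaled by size factors, so it differs from the normalized sums. It was lowest in KO library 3, at 0.223%, whereas the normalized sum was lowest in KO library 4. Libraries of a group were ordered alike over the genes. KO library 4 was the lowest KO library in 12 of the 17 genes, WT library 4 the lowest WT library in 16, and WT library 1 the highest WT library in 13. Leaving out single libraries gave 9 to 13 lower genes. Without WT library 4 and KO library 3 together, which earlier results of these data had set apart, 12 were lower and 0 higher. Beside these counts, 7 of 8 macrophage, 4 of 8 fibroblast, 5 of 7 plasma cell, 7 of 7 mast cell and 4 of 6 tested epididymal markers passed as lower, and 8 of 8 adipocyte and 4 of 6 endothelial markers as higher, with the sums given above. Their part in the chaperone values was not tested.

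Of the 8 ERAD genes, 1 rose (20.2% of all genes did), 2 fell (21.5% of all genes did) and 5 did not pass, with a median log2 fold change of -0.09. These counts are near the background, and the single genes are described. Derl1 (ENSMUSG00000022365.6, chr15:57869502-57892448, minus strand), a membrane protein of the channel through which misfolded proteins leave the ER, was the gene that rose. It had 5520.4, 5573, 6866 and 7024 in KO libraries 1 to 4, against 3537, 3602, 3565 and 3559.9 in WT libraries 1 to 4 (log2 fold change 0.80, SE 0.10, limma adjusted p = 0.000745). The WT libraries were nearly equal and all KO libraries were far above them, at 175% of the WT mean. The call held under all 20 alternatives tried, a threshold of 0.01 among them.

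The paralogue Derl2, of the same channel family, did not pass. It was at 1026 to 1214 in KO, against 1004 to 1299 in WT, with a log2 fold change of -0.08 (95% interval -0.29 to 0.14, limma adjusted p = 0.549). Derl3, known from secretory cells, was the least expressed member, with 40.2, 22.2, 41.9 and 18.2 in KO libraries 1 to 4, against 69.7, 55.8, 52.0 and 109 in WT libraries 1 to 4 (log2 fold change -1.22, SE 0.35, limma adjusted p = 0.0227). The Derl3 groups did not overlap, but the call was lost without KO library 2 (limma adjusted p = 0.0546), KO library 4 (0.0526), WT library 1 (0.0503) or WT library 4 (0.0514), the last of which held the highest value. WT library 4 also held the highest levels of Jchain and Mzb1, the first 2 of 7 plasma cell markers, at 9582 and 187.3, against 2525 to 4212 and 41.8 to 105.5 in the other WT libraries. In KO Jchain was at 226.8 to 1826 and Mzb1 at 3.6 to 39.8. Mzb1 shares 57.2% of its exon bases with SPATA24 on the same strand, so reads there could belong to either gene. Of the 7 plasma cell markers, 5 passed as lower, none as higher, and Irf4, at 0.56 on the log2 scale, did not pass. Their part in the values of Derl3 was not tested.

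Edem2, which starts the trimming of sugars on misfolded glycoproteins, had 1186, 1129, 1121 and 1129 in KO libraries 1 to 4, against 1848, 1463, 1796 and 1455 in WT libraries 1 to 4 (log2 fold change -0.51, SE 0.10, limma adjusted p = 0.0037). The KO libraries lay close together and below all WT libraries, and no alternative tried removed the call. Its relative Edem1 was at 3477 to 4489 in KO, against 3969 to 4288 in WT, a log2 fold change of -0.11 (95% interval -0.32 to 0.11, limma adjusted p = 0.393). The ubiquitin ligase of ERAD, Syvn1, also called HRD1, was at 1789 to 2447 in KO, against 1854 to 1947 in WT, and its partner Sel1l at 4327 to 5993 in KO, against 5063 to 5653 in WT. Their log2 fold changes were 0.15 (95% interval -0.08 to 0.38, limma adjusted p = 0.257) and -0.12 (95% interval -0.36 to 0.13, limma adjusted p = 0.409). Herpud1, a membrane protein of the same complex and a known stress-induced gene, was at 1766 to 2160.5 in KO, against 1623 to 2316 in WT, with a log2 fold change of 0.08 (95% interval -0.19 to 0.35, limma adjusted p = 0.606). The 5 genes that did not pass had groups that overlapped, and their intervals lay between -0.36 and 0.38 on the log2 scale.

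The sensors and Xbp1 parted. All 3 sensor genes fell and Xbp1 rose, so that each of the 4 passed (41.7% of all genes did). Ern1 (ENSMUSG00000020715.9, chr11:106394650-106487852, minus strand), the gene of IRE1, had 892, 872, 686 and 883 in KO libraries 1 to 4, against 1998, 1942, 2127 and 1132 in WT libraries 1 to 4 (log2 fold change -1.08, SE 0.20, limma adjusted p = 0.00379). WT library 4 lay well below the other WT libraries and still above the KO libraries, and KO kept 46.3% of the WT mean. Xbp1 (ENSMUSG00000020484.18, chr11:5520659-5525893, plus strand), whose messenger IRE1 splices, had 5792, 5041, 7218 and 8032 in KO libraries 1 to 4, against 4315, 4429.5, 3849.7 and 4008 in WT libraries 1 to 4 (log2 fold change 0.63, SE 0.15, limma adjusted p = 0.00944). The KO libraries spread widely, from 5041 to 8032, and lay above the WT libraries. Xbp1 missed the threshold only without WT library 4 and KO library 3 together (log2 fold change 0.56, limma adjusted p = 0.0565).

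Atf6 encodes the sensor that becomes a transcription factor. It had 1928, 2136, 1885 and 1912 in KO libraries 1 to 4, against 2748, 2344, 2723 and 2320.2 in WT libraries 1 to 4 (log2 fold change -0.36, SE 0.09, limma adjusted p = 0.0101). KO and WT did not overlap, and KO library 2 came closest to WT. Eif2ak3, the gene of PERK, had 822, 945, 817 and 834 in KO libraries 1 to 4, against 989, 1062, 1016 and 1082 in WT libraries 1 to 4 (log2 fold change -0.28, SE 0.07, limma adjusted p = 0.0158). The fall was small and the groups lay close, and without WT library 4 and KO library 3 it was not called (limma adjusted p = 0.0855). Eif2ak3 shares 8.05% of its exon bases with a predicted gene on the other strand.

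**Figure D3:**
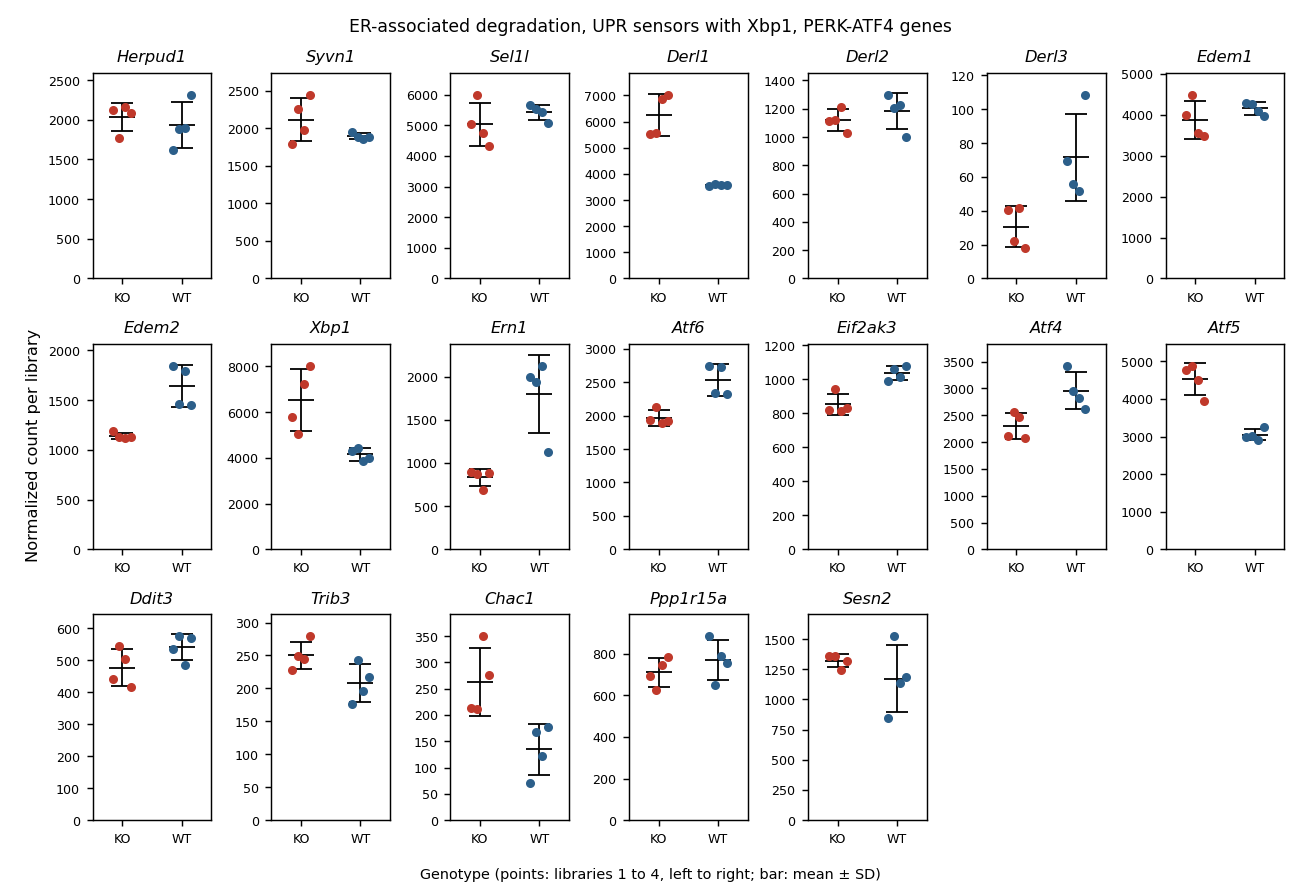
Normalized counts of the ERAD, sensor, Xbp1 and PERK-ATF4 genes in each library, with KO left and WT right, points for libraries and bars for the mean and SD; each axis starts at 0. Derl1, Xbp1, Atf5 and Chac1 have all KO points above all WT points, and Derl3, Edem2, Ern1, Atf6, Eif2ak3 and Atf4 all KO points below.

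Of the 7 genes of the PERK-ATF4 arm, 2 rose, 1 fell and 4 did not pass, with a median log2 fold change of 0.20. With 3 of 7 called, where 41.7% of all genes were, the count is near the background and only the single genes are described. Chac1 (ENSMUSG00000027313.3, chr2:119351229-119354381, plus strand), which degrades glutathione and is a target of the arm, had 213, 212, 349 and 276 in KO libraries 1 to 4, against 71.6, 168, 122 and 177 in WT libraries 1 to 4 (log2 fold change 1.01, SE 0.30, limma adjusted p = 0.0277). The KO libraries lay above the WT libraries at 195% of the WT mean, with KO library 3 highest and WT library 1 lowest. The call was lost without KO library 3 (limma adjusted p = 0.0746), KO library 4 (0.0635) or WT library 3 (0.0643), and without KO library 3 and WT library 4 together (0.0521). Atf5, a transcription factor translated in the same manner as ATF4, had 4780.4, 4887, 4516 and 3945 in KO libraries 1 to 4, against 3001, 3022, 2906 and 3252 in WT libraries 1 to 4 (log2 fold change 0.57, SE 0.09, limma adjusted p = 0.00161). Its groups were well apart and no alternative removed the call. Atf5 shares 4.11% of its exon bases with Nup62 and Il4i1 on the other strand. Nup62 had a log2 fold change of -0.68 (limma adjusted p = 0.00411), the opposite direction.

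Atf4, the transcription factor of the arm, had 2114, 2560.2, 2462 and 2073 in KO libraries 1 to 4, against 3425, 2955, 2826 and 2622 in WT libraries 1 to 4 (log2 fold change -0.36, SE 0.11, limma adjusted p = 0.0278). The groups did not overlap, with the highest KO library close below the lowest WT library. The call was lost without KO library 1 or 4 or without WT library 1, 2 or 3 (limma adjusted p = 0.0538 to 0.0752). ATF4 is governed mainly in translation, so its messenger is a partial measure. Ddit3, which encodes the pro-apoptotic factor CHOP, was at 417 to 544 in KO, against 486 to 575 in WT, with a log2 fold change of -0.19 (95% interval -0.43 to 0.06, limma adjusted p = 0.193). Reads in 10.9% of its exon bases could belong to Mars or Gm4189, which lie on the other strand. Mars averaged 1601 in KO and 1282 in WT and rose (log2 fold change 0.32, limma adjusted p = 0.0193). Trib3, a pseudokinase that dampens ATF4, was at 229 to 279 in KO, against 177 to 243 in WT, with a log2 fold change of 0.27 (95% interval -0.02 to 0.56, limma adjusted p = 0.122), and passed only under quantile normalization (limma adjusted p = 0.0305). Ppp1r15a, the GADD34 phosphatase subunit that ends the PERK signal, was at 624 to 782 in KO, against 650.1 to 883 in WT, with a log2 fold change of -0.11 (95% interval -0.37 to 0.15, limma adjusted p = 0.455). Sesn2, a sestrin that restrains mTORC1, had one of 0.20 (95% interval -0.16 to 0.56, limma adjusted p = 0.329). WT libraries 1 and 2 of Sesn2 stood at 845.8 and 1521, on either side of the KO range of 1244 to 1362.

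Levels were set beside each other as normalized counts per kilobase of exon, without a test. The most abundant members were Calr, at 4940 in KO and 8049 in WT, P4hb, at 4157 in KO and 5138 in WT, and Hspa5, at 2865 in KO and 4511 in WT. They held ranks 1 to 3 of 36 in both genotypes. Atf5 was at 2274 in KO and 1528 in WT, which put it at place 6 in KO and 8 in WT. Xbp1, at 2008 in KO and 1278 in WT, stood at place 7 in KO and 10 in WT, and Derl1, at 1877 in KO and 1072 in WT, at place 8 in KO and 13 in WT. In the other direction, Sdf2l1, at 465 in KO and 1148 in WT, stood at place 18 in KO and 12 in WT, and Ern1, at 102 in KO and 220 in WT, at place 34 in KO and 29 in WT. Derl3 was last in both, at 15.4 in KO and 35.9 in WT.

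**Figure D4:**
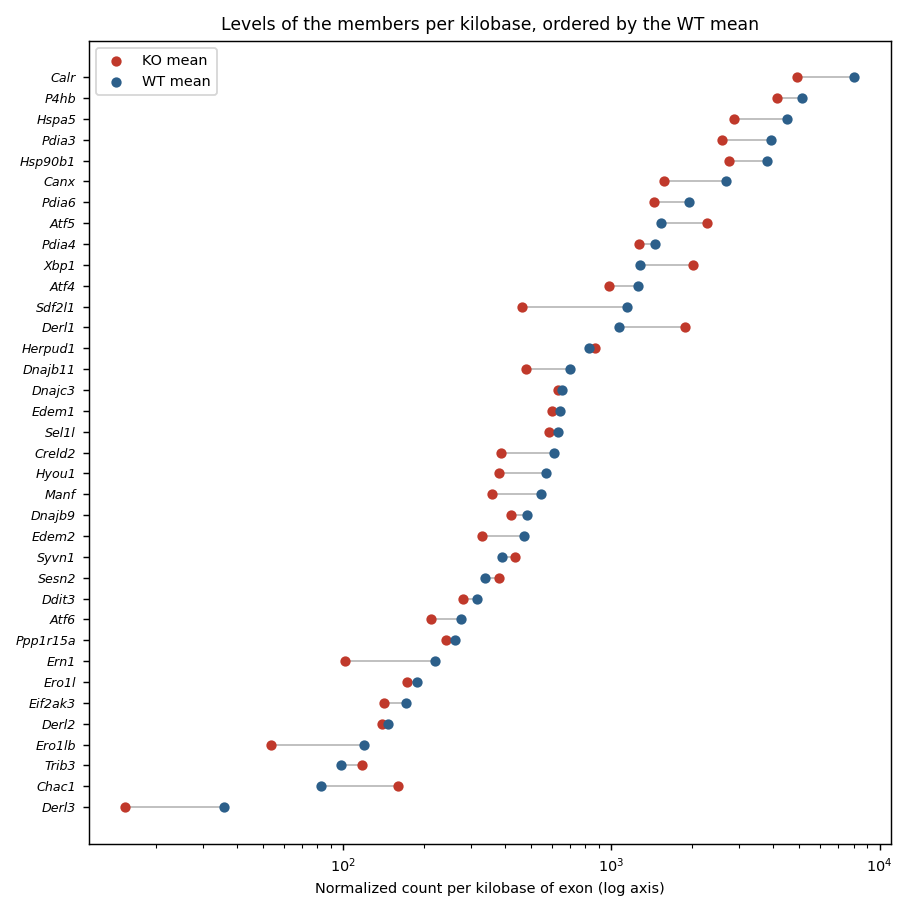
Mean normalized count per kilobase of exon of each member in KO and WT on a log axis, ordered by the WT mean. KO means of chaperones lie left of their WT means. KO means of Atf5, Xbp1, Derl1 and Chac1, which passed, and of Herpud1, Syvn1, Trib3 and Sesn2, which did not, lie right. Calr is highest and Derl3 lowest in both genotypes.

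Other genes of the same pathways were counted from 6 further lists, and each count stands against 20.2% of all genes that rose and 21.5% that fell. Of 36 other folding genes, 35 were tested, 5 rose and 14 fell (20.2% and 21.5% of all genes did), with a median log2 fold change of -0.12. The 4 with the smallest p were Rcn1, a calcium-binding ER protein (-0.86), Mogs, the first glucosidase of glycan trimming (-0.71), Tmx2, a membrane thioredoxin (0.44), and Uggt1, which tags unfolded glycoproteins for a further round of folding (-0.83), with limma adjusted p values of 0.000605 to 0.00211. Uggt1 had 2853, 2895, 2423 and 2308 in KO libraries 1 to 4, against 4939, 4916, 5301 and 3621 in WT libraries 1 to 4. Its KO libraries lay below its WT libraries, as those of Calr and Canx did. The paralogue Uggt2 rose (log2 fold change 0.54, limma adjusted p = 0.00578). Uggt2 is outside the naming rule and was chosen after its value was seen.

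Genes of translocation into the ER and of glycan transfer fell in 9 of 35 (21.5% of all genes did) and rose in 3 (20.2% of all genes did). The share that fell lay a little above that of all genes, and the share that rose lay below it. Their median log2 fold change was -0.14. Spcs3 (-0.76) and Sec11c (-1.18), both of the signal peptidase, and Rpn1 (-0.66), of the oligosaccharyltransferase, fell. Sec61a2, a channel subunit, rose (0.87). These 4 had limma adjusted p values of 0.000636 to 0.00247. Other ERAD genes rose in 4 of 25 and fell in 1 (20.2% and 21.5% of all genes), with a median of 0.02. Those that rose were the deglycosylating enzyme Ngly1 (0.67), Fam8a1 of the HRD1 complex (0.65), Ufd1, a cofactor of the p97 ATPase (0.41), and Svip, a p97-binding inhibitor of ERAD (0.93), with limma adjusted p values of 0.00146 to 0.0107. The gene that fell was Aup1 (-0.25, limma adjusted p = 0.0387), named because it was the only one, and it was not called without KO library 1 or 3 or without WT library 1 or 3.

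Genes around the sensors rose in 1 of 12 and fell in 4 (20.2% and 21.5% of all genes), with a median of -0.14. Mbtps2, the protease that releases ATF6, fell (-0.53), as did the ATF6 relative Atf6b (-0.26) and Creb3l3, a related membrane-bound factor (-2.62), and the kinase gene Map3k5 rose (0.56). Their limma adjusted p values were 0.00459 to 0.0108. Creb3l3 had only 7.3 to 21.8 normalized counts in KO and 42.1 to 318.4 in WT, so its fold rests on few reads. Cytosolic and mitochondrial heat shock genes, a neighbouring system outside the ER, rose in 3 of 20 and fell in 1 (20.2% and 21.5% of all genes), with a median of -0.11. Hspd1, the mitochondrial HSP60 (0.59), and the small heat shock genes Hspb8 (1.13) and Hspb1 (0.95) rose, and the co-chaperone Bag3 fell (-0.36), with limma adjusted p values of 0.000782 to 0.0132. Without WT library 4 and KO library 3 together, Bag3 was not called (limma adjusted p = 0.0726).

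Of 37 other genes linked to ATF4, 9 rose (20.2% of all genes did), 13 fell (21.5% of all genes did) and 15 did not pass, with a median log2 fold change of -0.10. The 4 with the smallest p all rose. Eif4ebp1, an inhibitor of translation, had 6919, 6148, 8649 and 7713 in KO libraries 1 to 4, against 1983, 2416, 2123 and 2475 in WT libraries 1 to 4 (log2 fold change 1.70, SE 0.12, limma adjusted p = 0.000158). Phgdh, the enzyme that commits glucose carbon to serine, had 19028, 17939, 22686 and 20518 in KO libraries 1 to 4, against 4490.3, 7421, 6133 and 5482 in WT libraries 1 to 4 (log2 fold change 1.79, SE 0.16, limma adjusted p = 0.000304). In both genes every KO library was far above every WT library. Vegfa, a vascular growth factor (2.48), and Stc2, a secreted stanniocalcin (1.89), followed, with limma adjusted p values of 0.00035 and 0.000499. Asns, asparagine synthetase, rose as well, at 1377 to 2345 in KO, against 547 to 759 in WT (SE of the log2 fold change 0.21, limma adjusted p = 0.00115). The stress factor Atf3 fell, with 356, 782, 373 and 263 in KO libraries 1 to 4, against 7829, 3229, 5824 and 3480.3 in WT libraries 1 to 4 (log2 fold change -3.54, SE 0.38, limma adjusted p = 0.000531), and so did Gdf15, a stress-induced hormone (log2 fold change -2.94, SE 0.44, limma adjusted p = 0.00158). Slc7a11 (-3.30), Mthfd2 (-1.81), Cth (-1.62), Shmt2 (-1.08) and Aldh18a1 (-0.81) were also among the 13 that fell, where 9 rose. Their limma adjusted p values were 0.000757 to 0.0162. Slc7a11 had only 12.1 to 30.1 normalized counts in KO, so its fold rests on few reads. In WT libraries 1 to 4 it had 314.6, 345.2, 376.9 and 50.6. WT library 4 was also the lowest of WT for Mthfd2, at 371.7, and Cth, at 300.6, as for the epididymal markers, but not for Shmt2 or Aldh18a1. The part of the epididymis in these values was not tested. Asns, Atf3, Gdf15 and these genes that fell are outside the naming rule and were chosen after their values were seen.

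**Figure D5:**
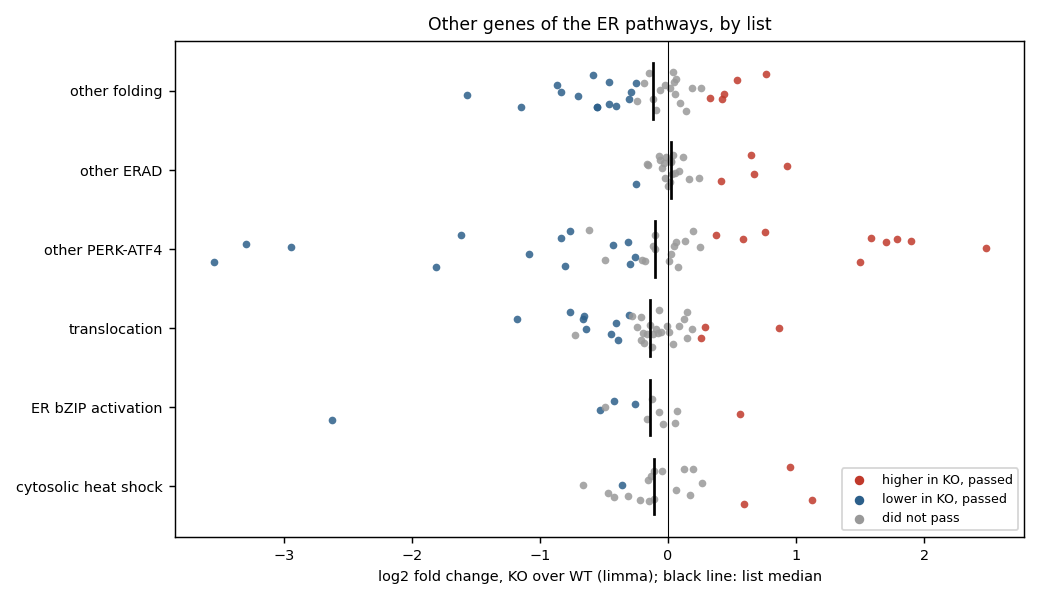
Log2 fold change, KO over WT, of the genes tested in 6 further lists, each point a gene, coloured by whether it passed at an adjusted p under 0.05, with the list median as a black line. Medians lie between -0.14 and 0.02, and the genes linked to ATF4 spread widest, from -3.54 to 2.48.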

How the data were processed

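RNA-seq libraries of 8 samples were analysed, made from total RNA with the TruSeq RNA Sample Prep kit, per the labels' protocols. The authors deposited a normalized count signal per gene; STAR 2.7.7, DESeq2 and GRCm38.p6 are named in the submitters' processing notes, without their roles. Read counter, strand setting and annotation: not given in the sources used here, so reads in exons shared by neighbouring genes could belong to either. The deposited values of a library were whole multiples of a single factor (100.0% of values within 0.01 of a whole number), which gave back whole reads and the depth of each library. Identifiers were matched to GENCODE M21, with 24802 of 24821 genes named.

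A gene was tested where 4 or more of the 8 libraries had 10 or more normalized counts (17798 genes), on log2(value + 1) with limma 3.58.1 in R 4.3.3, with a mean-variance trend and robust moderation, and p-values were adjusted over all of them by Benjamini-Hochberg at a threshold of 0.05. Fold changes are on the log2(value + 1) scale, which understates those of low genes. edgeR 4.0.16 and DESeq2 1.42.0 on the recovered reads, other pseudocounts, filters, normalizations and weights, a replicate block and the removal of libraries were alternatives. Chi-square of counts per degree of freedom, for pairs of libraries within a genotype, was 26.8 to 449. No such pair therefore agreed within sampling noise, for which it would be near 1.

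The members and gene lists, those of other cell types included, were chosen with earlier results of these data known. All 36 members were accounted for, up to 4 genes of each further list were named by smallest p, and the first 2 of each marker list. Promoter sequences are from RefSeq (GRCm38.p6). Replicate numbers were checked for pairing and do not mark shared animals in the labels. Intervals of limma cover the spread between libraries. Columns were mapped to samples by their headers.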

Additional observations from a re-analysis of the deposited data

Results flagged for a closer look

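Each member was looked at for a library that stood apart within its group of 4, by Dixon's ratio of gap to range at its 95% critical value. It was exceeded in 7 of 72 group values, and chance gives about 1 in 20.

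WT library 4 stood below its group in 3 members. Hspa5 was at 14242 normalized counts there and at 20300.0 to 21031 in the other WT libraries, Manf at 1474 against 2070 to 2098, and Ero1l at 900.7 against 1017 to 1031. The KO values of Hspa5, 9412 to 14206, and of Manf, 1044 to 1394, lay below WT library 4, whereas those of Ero1l, 790.0 to 1071, lay on both sides of it. WT library 4 had 39012 summed normalized counts of epididymal markers, the lowest of WT, where the other WT libraries had 70398 to 149506. It had 105927 of macrophage markers, against 101977 to 263528 in the other WT libraries. The part of either in these values was not tested.

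In KO, 4 members had a library that stood apart. Edem2 was at 1186 in KO library 1 and at 1121 to 1129 in the other KO libraries. Ern1 was at 685.8 in KO library 3 against 872.5 to 891.7. KO library 2 was highest in Atf6, at 2136 against 1885 to 1928, and in Eif2ak3, at 945.1 against 816.9 to 834.4. KO library 2 also had the highest KO sums of macrophage markers, 28036, and of fibroblast markers, 162541, against 16252 to 20967 and 84253 to 97807 in the other KO libraries.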

How the results depend on the processing

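Over 20 alternatives and 36 members, 672 of 720 values kept their side of the threshold, 39 lost it, 9 gained it and 0 of the members turned direction. Of 22 called members, 12 kept their call throughout, and Pdia3 and Atf6 lost it only at a threshold of 0.01. Lower chaperone and disulfide genes numbered 12, and 8 (threshold 0.01) to 15 (library weights) under the alternatives. The threshold of 0.01 gave 1986 higher and 2261 lower genes in all, against 3592 and 3831, and left 1 lower ERAD gene, 1 lower sensor, 1 higher and 0 lower PERK-ATF4 genes. Quantile normalization left 1 lower ERAD gene. Without WT library 4 and KO library 3, Xbp1 was not called (0 of the sensors and Xbp1 higher) and 1 PERK-ATF4 gene was higher. Without single libraries, lower ERAD genes numbered 1 to 2, higher PERK-ATF4 genes 1 to 2 and lower ones 0 to 1; the cause was not tested. Same-number correlations of deviations from the group means were -0.14, 0.05, -0.04 and 0.17, and KO library 4 alone correlated best with its own number. They cannot exclude a pairing of the samples, since deviations within a group so small offset each other. With the replicate number as a block, 2989 genes were higher and 3277 lower, 12 chaperone and disulfide genes were lower, 1 ERAD gene was lower and 0 PERK-ATF4 genes were lower. Of 240 counts in the further lists, 213 stayed within 1.5 times. Hspa5, Hsp90b1, Pdia6, Derl3, Atf4 and Chac1 lost their calls without single libraries; the cause was not tested.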

Other observations

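Dnajc10, the ER reductase that opens wrong disulfides before degradation and is no member of the 36, had 1918, 2047, 1853 and 1702 normalized counts in KO libraries 1 to 4, against 5550, 7744, 7700 and 2910 in WT libraries 1 to 4 (log2 fold change -1.57, SE 0.29, limma adjusted p = 0.00361). It was chosen after its values were seen. The epididymal markers summed to 880.2, 1006, 984.6 and 9.7 in KO libraries 1 to 4, against 70398, 149506, 134536 and 39012 in WT libraries 1 to 4. The lowest library of each genotype was library 4 for both Dnajc10 and this sum, and the part of the epididymis in the Dnajc10 values was not tested.

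Over the 11 chaperones, library 4 was the lowest KO library in 8 and the lowest WT library in 10, library 2 the highest KO library in 6, and library 1 the highest WT library in 9. Macrophage markers summed to 20967, 28036, 16252 and 16265 in KO libraries 1 to 4, against 263528, 101977, 177088 and 105927 in WT libraries 1 to 4. The lowest macrophage sums were in KO library 3 and WT library 2, and the highest in KO library 2 and WT library 1. The lowest and highest fibroblast sums were in the same libraries. Adipocyte sums were lowest in KO library 2 and WT library 1, and highest in KO library 4 and WT library 2. The part of any cell type in the chaperone values was not tested.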
